A study of Mus musculus with 2 samples.

Results

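The cytosolic ribosomal protein genes code for the proteins of the large (Rpl) and small (Rps) subunits of the ribosome that translates messenger RNA in the cytoplasm. They were taken from the deposited gene table by symbol: Rpl or Rps followed by a digit, together with Rplp0, Rplp1, Rplp2 and Rpsa, leaving out the S6 kinases, symbols marked as pseudogenes and table entries that carry several symbols. Of 99 entries that hold these prefixes, 14 were dropped (10 S6 kinases, 2 entries with several symbols and 2 pseudogenes). The remaining 85 of 23235 listed genes were 51 of the large and 34 of the small subunit. One of them is not a ribosomal protein by function: Rps19bp1 codes for a nucleolar protein that binds Rps19.

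RNA was sequenced from cells of 2 mouse acute promyelocytic leukaemias, a myeloid leukaemia arrested at the promyelocyte stage and driven by the PML-RAR fusion, which the series sets against each other as clones with unlike frequencies of leukaemia-initiating cells. APL#2 and APL#1 are both primary PML-RAR leukaemias (named as mCG-PML-RAR transgenic and also as knock-in; as background, this model expresses the fusion from the mouse cathepsin G locus, which is active in early myeloid cells) of the CD45.2+ C57BL/6-Ly5.2 strain, grown in CD45.1+ C57BL/6-Ly5.1 recipients that had not been irradiated. APL#2 was passed on with 200000 cells and APL#1 with 2000000, and both are labelled untreated and aged 10 weeks. CD45.2+ cells were purified from spleen on immunomagnetic columns, and each leukaemia gave 1 library. Leukaemia, recipient, cell dose and library therefore differ together and cannot be told apart. With 1 library a leukaemia no test across samples can be made, and no difference below has a replicate check.

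A ribosome holds 1 copy of nearly every ribosomal protein on a scaffold of ribosomal RNA, so cells make these proteins in matched amounts, and an excess that is not built into a subunit is degraded. Vertebrate ribosomal protein messenger RNAs begin with a 5′ terminal oligopyrimidine (TOP) tract, a run of C and U that starts at the cap and lets mTOR signalling, through Larp1 and the eIF4E-binding proteins, turn their translation up or down as a group. The genes are intron-bearing single copies with many processed pseudogenes, and their introns often carry small nucleolar RNAs. In blood formation, loss of 1 copy of several of them in human causes Diamond-Blackfan anaemia, and free Rpl5 and Rpl11 bind Mdm2 and so stabilise p53.

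Ribosomal protein transcripts were more abundant in APL#2 than in APL#1. Their FPKM values (fragments scaled to transcript length and library size, the unit read from the table's layout) summed to 7934 in APL#2 and 5199 in APL#1 (ratio 1.53). These sums were 22.5% of the total over all listed genes in APL#2 and 14.9% in APL#1. The large subunit summed to 4532 FPKM in APL#2 and 3064 in APL#1 (ratio 1.48), and the small subunit to 3402 in APL#2 and 2135 in APL#1 (ratio 1.59). All other genes together summed to 27306 FPKM in APL#2 and 29695 in APL#1. In bulk RNA such as this, more cells of a kind and more RNA per cell cannot be told apart.

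For single genes, the difference is log2 of (FPKM + 1) in APL#2 over (FPKM + 1) in APL#1, and genes whose mean over both libraries reached 1 FPKM are called measured. The median difference of the 4100 measured genes was -0.17, and the relative difference used below is the log2 difference minus that median. Of 85 ribosomal protein genes 80 were measured, 47 of the large and 33 of the small subunit. The other 5 were Rpl26, Rpl10l and Rpl39l, listed at 0 FPKM in both libraries, Rpl3l (0.0387 FPKM in APL#2 and 0.0628 in APL#1) and Rps4y2 (0.0658 in APL#2 and 0 in APL#1).

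In the large subunit, FPKM was higher in APL#2 for 42 of 47 measured genes, beside 28.4% of all measured genes. Relative to the all-gene median, which by construction 50% of measured genes exceed, 44 of the 47 lay above it. Median FPKM of the large subunit genes was 44.0 in APL#2 and 35.4 in APL#1, the median ratio was 1.34, and the median relative difference was 0.60 (interquartile range 0.39 to 0.82). In the small subunit, FPKM was higher in APL#2 for 30 of 33 measured genes, and the same number lay above the all-gene median. Median FPKM was 55.5 in APL#2 and 38.0 in APL#1, the median ratio was 1.48, and the median relative difference was 0.71 (interquartile range 0.51 to 0.80). Over all measured genes the interquartile range of relative differences was -0.19 to 0.22.

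Few single genes reached a 2-fold difference, so the pattern is one of many moderate differences in 1 direction. On the log2(FPKM + 1) scale, Rpl32 of the large and Rps12 of the small subunit were at least 2-fold higher in APL#2, beside 2.1% of all measured genes. Rps27 was at least 2-fold lower in APL#2, beside 2.44% of all measured genes, in an entry that shares its locus with another one, as described below. The standard error implied by the authors' deposited table (the log2 fold over its test statistic) had a median of 0.59 for the large and 0.64 for the small subunit. That is above the median log2 differences of 0.42 and 0.54 and about the size of the median relative differences. In the authors' deposited table no ribosomal protein gene was marked as significant, against 11 genes in all. In the authors' deposited table p was under 0.05 for 2 measured members, Rpl32 (0.0180) and Rps12 (0.0299), beside 1.56% of all measured genes, and every measured member had a q of 0.999997 or more.

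**Figure D1:**
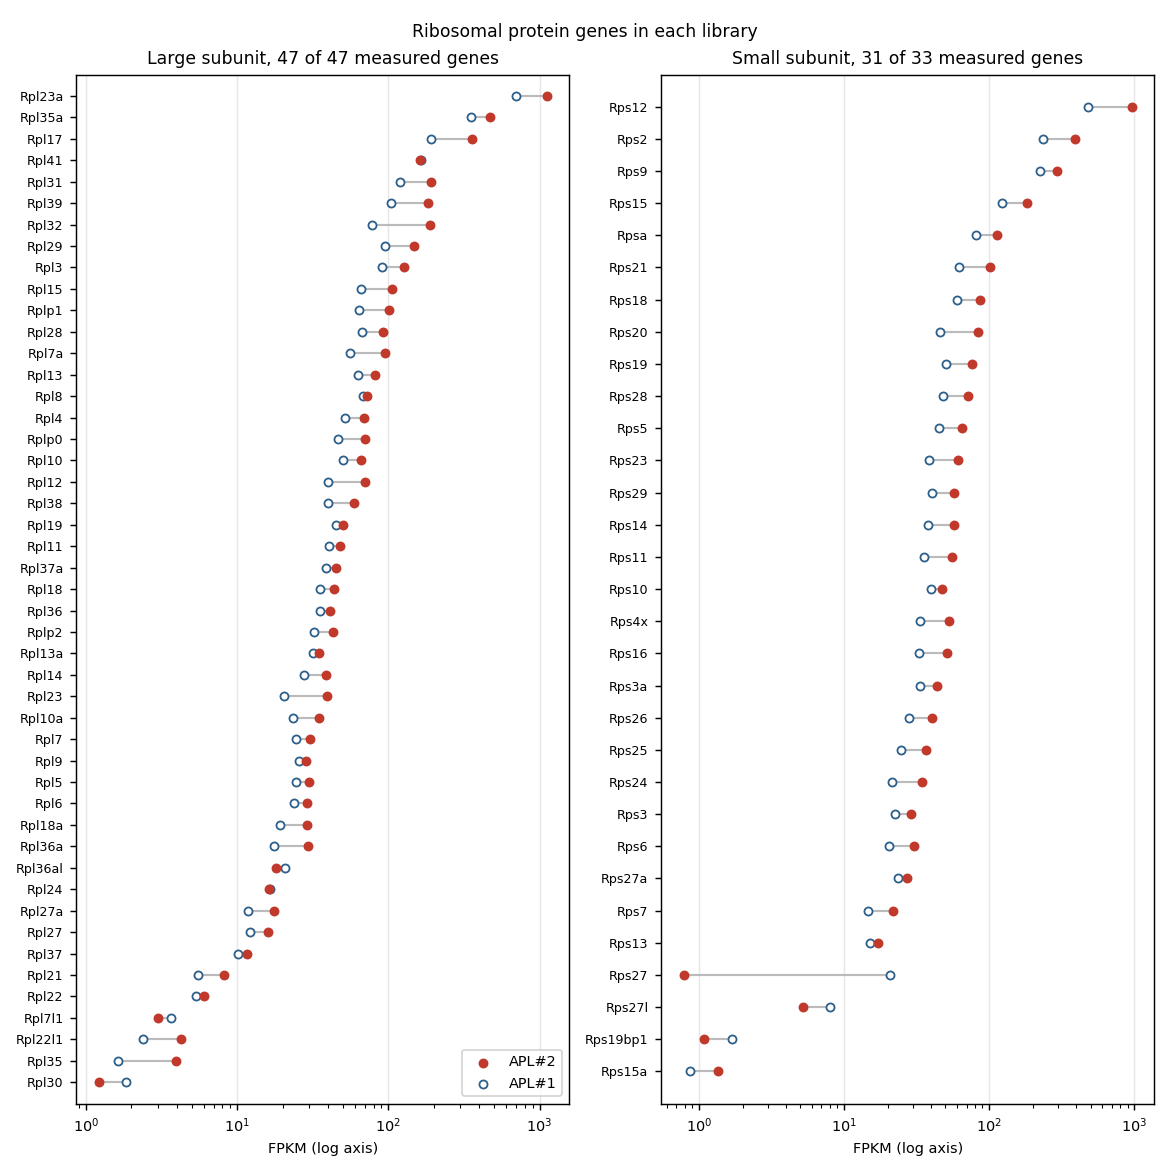
FPKM (log axis) of 78 of the 80 measured ribosomal protein genes (47 large and 31 small drawn), large subunit on the left and small subunit on the right, ordered by mean level, with filled points for APL#2, open points for APL#1 and a line joining both values of a gene, 1 library each. FPKM is higher in APL#2 for 42 of the 47 large and 28 of the 31 small subunit genes drawn, and the longest line, at 0.784 in APL#2 and 20.9 in APL#1, is Rps27.

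Among the most abundant large subunit genes, Rpl23a, which sits at the mouth of the tunnel through which the new protein leaves, had 1121 FPKM in APL#2 and 697 in APL#1 (ratio 1.61, relative difference 0.86). Rpl35a had 473 FPKM in APL#2 and 353 in APL#1 (ratio 1.34), and Rpl17, a protein of the tunnel wall, had 356 in APL#2 and 193 in APL#1 (ratio 1.85, relative difference 1.05). Rpl31, also at the tunnel mouth, had 191 FPKM in APL#2 and 120 in APL#1. All of these were higher in APL#2. Rpl41, the shortest ribosomal protein, was as abundant and nearly level, at 162 FPKM in APL#2 and 164 in APL#1 (ratio 0.989, relative difference 0.16).

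Among large subunit genes the relative difference was greatest for Rpl32, at 188 FPKM in APL#2 and 78.4 in APL#1 (ratio 2.39, relative difference 1.42, implied standard error 0.53 by the authors' deposited table). Rpl35, a docking point for factors at the tunnel mouth, was low in both libraries, at 3.97 FPKM in APL#2 and 1.62 in APL#1 (ratio 2.45, relative difference 1.10), or about 215 and 80.1 fragments as estimated from the low values of the table. Its implied standard error by the authors' deposited table was 1.34, larger than the difference. Rpl23, which lies at the interface of the subunits, had 39.3 FPKM in APL#2 and 20.5 in APL#1 (relative difference 1.08). Rpl39, a small protein of the tunnel wall, had 182 FPKM in APL#2 and 104 in APL#1 (relative difference 0.98). At the other end, Rpl24, an interface protein, had 16.2 FPKM in APL#2 and 16.6 in APL#1 (ratio 0.976, relative difference 0.14), and Rpl8, near the peptidyl transferase centre, had 72.1 in APL#2 and 68.3 in APL#1 (relative difference 0.25).

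Rps12, a protein of the beak of the small subunit, was its most abundant transcript, at 965 FPKM in APL#2 and 478 in APL#1 (ratio 2.02, relative difference 1.18, implied standard error 0.47 by the authors' deposited table). Other abundant small subunit genes were higher in APL#2 as well. Rps2, at the entry of the messenger RNA channel, had 388 FPKM in APL#2 and 235 in APL#1, and Rps9, its neighbour there, had 294 in APL#2 and 224 in APL#1. Rps15, near the decoding site, had 181 FPKM in APL#2 and 123 in APL#1. After Rps12, large relative differences were those of Rps20 (83.8 FPKM in APL#2 and 45.5 in APL#1, relative difference 1.04), Rps2 (0.89) and Rps21 (102 FPKM in APL#2 and 62.3 in APL#1, relative difference 0.87). It was smallest among genes above the median for Rps13 (17.2 FPKM in APL#2 and 15.2 in APL#1, relative difference 0.34) and Rps27a (27.1 in APL#2 and 23.6 in APL#1, relative difference 0.36), which codes for a ubiquitin fusion. Rps15a was the lowest measured small subunit gene by mean level, at 1.35 FPKM in APL#2 and 0.874 in APL#1, or about 49.4 and 29.2 fragments.

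The 6 measured members below the all-gene median were of a limited kind. Rpl36al (18.2 FPKM in APL#2 and 20.8 in APL#1, relative difference -0.02), Rpl7l1 (3.02 in APL#2 and 3.65 in APL#1, -0.04) and Rps27l (5.22 in APL#2 and 8.06 in APL#1, -0.37) are paralogs of Rpl36a, Rpl7 and Rps27. Rps19bp1 (1.08 FPKM in APL#2 and 1.70 in APL#1, -0.20) codes for the binding protein named above. Rpl30 and Rps27 share their listed locus with an entry that is a pseudogene or carries several symbols. Sharing a listed locus is not in itself particular to them. Other members share theirs with a small RNA or another gene and lay above the all-gene median, such as Rpl31 (0.83) and Rpl32 (1.42).

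In these last entries the table lists 1 locus under several names. A listed locus can span several genes, as that of Rps4y2 is also given for Far2 and Ergic2. Sharing it therefore does not show that entries cover the same bases. At chr3:90016588-90017570 (mm9), Rps27 alone had 0.784 FPKM in APL#2 and 20.9 in APL#1, while an entry with exactly the same locus that carries the symbols Gm9846 and Rps27 had 44.0 in APL#2 and 8.17 in APL#1. The entry named Rps27 thus held 1.75% of the FPKM of both entries in APL#2 and 71.9% in APL#1. Summed, the locus had 44.8 FPKM in APL#2 and 29.1 in APL#1 (ratio 1.54, relative difference 0.78), so the direction of the sum is opposite to that of the entry named Rps27 alone. The standard error implied for that entry by the authors' deposited table was 18.5 on the log2 scale.

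The same arrangement was found at other ribosomal protein loci. At its locus on chromosome 15, Rpl30 had 1.21 FPKM in APL#2 and 1.84 in APL#1 and an entry named Gm12191 had 38.3 in APL#2 and 25.9 in APL#1, together 39.5 in APL#2 and 27.7 in APL#1 (ratio 1.43, relative difference 0.67). At chr11:68715067-68718036 (mm9), Rpl26 was listed at 0 in both libraries and Gm15772 had 64.7 FPKM in APL#2 and 44.9 in APL#1 (ratio 1.44, relative difference 0.69). Rpl34 occurs only in an entry shared with the pseudogene symbol Rpl34-ps1 at chr3:130429748-130433247 (mm9), with 39.0 FPKM in APL#2 and 29.96 in APL#1 (ratio 1.30, relative difference 0.54). Each of these sums was higher in APL#2. RefSeq on GRCm38 lists Gm15772 on chromosome 5, Gm12191 on chromosome 11 and Rpl34-ps1 on chromosome 6 as pseudogenes, and Gm9846 as another name of Rps27rt, a retrogene on chromosome 9.

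**Figure D2:**
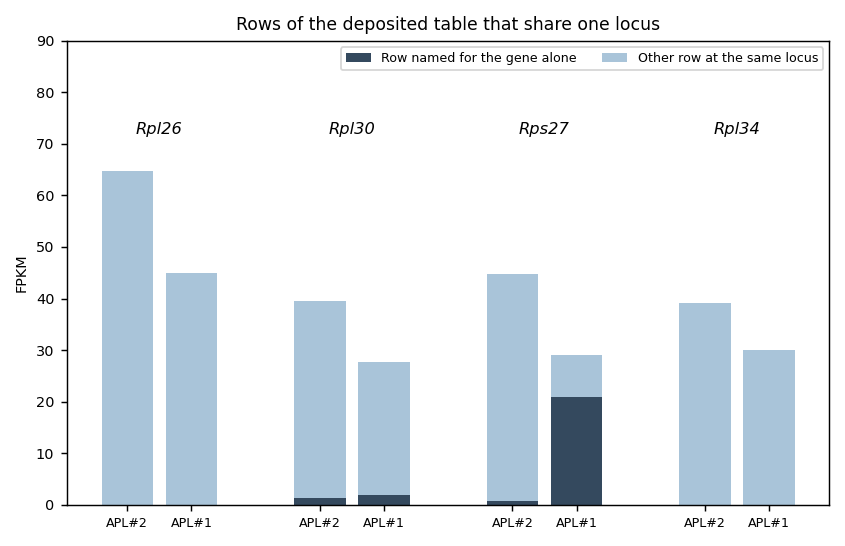
FPKM (stacked bars from 0) at the 4 ribosomal protein loci whose transcripts the table lists under another or a joint name, APL#2 left of APL#1 at each locus, 1 library each. Dark segments are the entry named for the gene alone and light segments the other entry with the same listed locus (for Rpl34 the joint entry). The whole bar is higher in APL#2 at each locus, while the dark segment of Rps27 is 0.784 in APL#2 and 20.9 in APL#1.

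The genes and the copies behind these names differ little in sequence. As background, a short read can be given to a gene or to its copy only where they differ. How the signal came to be divided between entries with the same listed locus was not tested. Coding bases are from the GENCODE annotation of GRCm38, 5′ to 3′, and capitals mark positions at which a gene and its copy differ. The coding sequence of Rps27 (minus strand, gene at chr3:90212522-90213651) is 252 bases long and is identical at all 252 bases to that of Rps27rt (minus strand, chr9:114982366-114982739), so it has no capitals.
Rps27 and Rps27rt: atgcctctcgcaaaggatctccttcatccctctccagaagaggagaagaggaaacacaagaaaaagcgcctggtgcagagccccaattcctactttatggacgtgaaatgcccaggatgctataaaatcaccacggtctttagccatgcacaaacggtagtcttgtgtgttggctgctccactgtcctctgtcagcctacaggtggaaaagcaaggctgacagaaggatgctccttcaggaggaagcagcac

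Over its whole coding length of 435 bases, Rpl26 (plus strand, chr11:68901583-68906989) matches Gm15772 (plus strand, chr5:3236431-3236868) at 433 bases (99.5%). Rpl30 matches Gm12191 at 344 of 345 bases (99.7%). A stretch of 120 bases around 1 mismatch of Rpl26 and its copy, coding bases 117 to 236, reads as follows.
Rpl26: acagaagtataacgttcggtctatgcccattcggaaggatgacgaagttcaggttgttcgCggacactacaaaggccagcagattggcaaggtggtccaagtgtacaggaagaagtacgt
Gm15772: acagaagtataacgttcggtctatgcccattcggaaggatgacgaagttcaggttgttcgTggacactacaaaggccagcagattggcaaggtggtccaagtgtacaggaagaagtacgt

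The paralogs in the family are further from the genes they copy. Rpl36al matches Rpl36a at 279 of 318 coding bases (87.7%), Rps27l matches Rps27 at 75.3%, Rpl22l1 matches Rpl22 at 73.5% and Rpl7l1 matches Rpl7 at 63.4% of aligned bases. The first 120 coding bases of Rpl36a (plus strand, gene at chrX:134585654-134588062) and Rpl36al (minus strand, chr12:69182731-69184083) differ at 18 positions, shown in capitals.
Rpl36a: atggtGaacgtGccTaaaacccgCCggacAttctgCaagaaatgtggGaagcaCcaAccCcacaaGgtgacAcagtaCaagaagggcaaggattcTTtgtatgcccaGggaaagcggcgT
Rpl36al: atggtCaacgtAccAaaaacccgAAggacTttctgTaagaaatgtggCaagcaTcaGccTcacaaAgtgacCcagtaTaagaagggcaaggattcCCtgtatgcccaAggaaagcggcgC

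Genes and paralogs did not differ between the libraries in 1 common way. Rpl36a had 29.5 FPKM in APL#2 and 17.7 in APL#1 (relative difference 0.88), so Rpl36a was the higher of the pair in APL#2 and the lower in APL#1. Rpl7 had 30.1 FPKM in APL#2 and 24.7 in APL#1 (0.45), against the near-level Rpl7l1 given above. Rpl22, an RNA-binding protein at the rim of the tunnel, had 6.09 FPKM in APL#2 and 5.34 in APL#1 (0.33), and its paralog Rpl22l1 had 4.25 in APL#2 and 2.40 in APL#1 (0.80), so here the paralog had the larger difference, which was within its standard error of 1.17 implied by the authors' deposited table. Rpl3 had 127 FPKM in APL#2 and 90.3 in APL#1 while Rpl3l, a gene of striated muscle, was near 0 in both, and Rpl10 had 66.2 in APL#2 and 50.2 in APL#1 while Rpl10l, a gene of the testis, was at 0 in both. Rps4x, on the X chromosome, had 52.8 FPKM in APL#2 and 33.7 in APL#1 (0.81).

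The paralogs, Rps19bp1 and the entries that share a locus with a pseudogene or several-symbol entry were set aside, and 73 members remained. Members that share a listed locus only with a small RNA or another gene were kept. This set was trimmed after its values were seen and serves as a description. FPKM was higher in APL#2 for 71 of the 73, the exceptions being Rpl24 and Rpl41, and all 73 lay above the all-gene median. Relative differences ran from 0.14 to 1.42 with a standard deviation of 0.25 across genes, which is smaller than the median standard error of 0.59 implied for these genes by the authors' deposited table. The order of levels within the family was nearly the same in both libraries (Spearman's rho 0.98 and Pearson's r 0.99 between log2 FPKM in APL#2 and in APL#1, across 73 genes that share both libraries and are not independent replicates).

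Abundant members had the larger differences. Of the 73 genes, the 14 with a mean of at least 100 FPKM had a median relative difference of 0.85, the 37 between 30 and 100 FPKM had 0.68, and the 22 under 30 FPKM had 0.53. Plain ratios of FPKM, which no pseudocount touches, had medians of 1.598, 1.43 and 1.39 in the same order. Across the 73 genes the relative difference had a Spearman's rho of 0.40 and a Pearson's r of 0.34 with log2 mean FPKM, as a description, and the pseudocount lowers the differences of the lowest genes. With transcript length rho was -0.03.

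**Figure D3:**
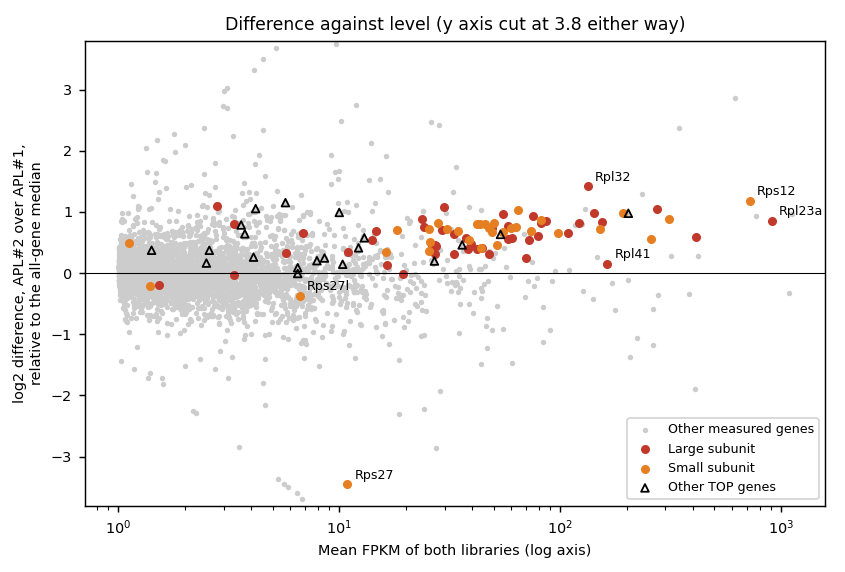
Relative log2 difference of APL#2 over APL#1 (y axis, 0 is the all-gene median) against mean FPKM of both libraries (log axis) for the measured genes, with large subunit genes in red, small subunit genes in orange, other TOP genes as open triangles and all other genes in grey. Genes beyond 3.8 in either direction are not drawn; 74 of 80 ribosomal protein genes lie above 0, and Rps27 lies far below.

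Short, abundant transcripts outside the family had a median slightly below that of all genes. These were genes outside the family with transcripts under 1000 nt and a mean of at least 10 FPKM. Mitochondrial ribosomal protein genes and small RNA genes were left out, while other genes of mitochondrial proteins were kept. The median relative difference of these 115 genes was -0.12 and 51 lay above the all-gene median (44.3%). At 30 FPKM or more, 44 such genes had a median of -0.13 and 18 lay above. The ribosomal proteins of the mitochondrion, which build a separate ribosome, had 54 of 76 genes measured, a median relative difference of -0.06 and 24 of 54 genes above the all-gene median. Among them Mrpl27 had 3.41 FPKM in APL#2 and 7.34 in APL#1 and Mrpl33 had 24.4 in APL#2 and 19.7 in APL#1, so single mitochondrial members lay on either side. These medians were not tested against those of the cytosolic family.

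**Figure D4:**
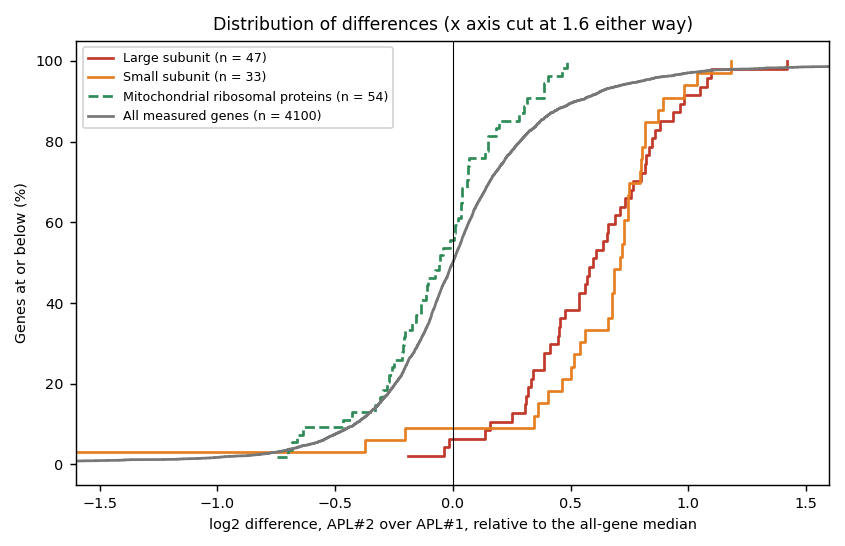
Share of genes (%) at or below each relative log2 difference of APL#2 over APL#1 for 47 large subunit genes, 33 small subunit genes, 54 mitochondrial ribosomal protein genes (dashed) and all 4100 measured genes. The curves of both cytosolic subunits run to the right of the curve of all genes, with medians of 0.60 and 0.71, and the mitochondrial curve, median -0.06, runs close to it; the x axis ends at 1.6 in either direction and leaves Rps27 outside.

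By place in the ribosome, each group held only members above the all-gene median. This follows from the choice of genes, since none of the 6 measured members below that median was placed in a group. In the large subunit, the P stalk and its base, which recruit the elongation factors, had a median relative difference of 0.79 over 4 genes. Rplp0, the stalk's anchor, had 70.2 FPKM in APL#2 and 46.2 in APL#1, Rplp1 had 101 in APL#2 and 63.8 in APL#1, Rplp2 had 43.0 in APL#2 and 32.2 in APL#1, and Rpl12 had 70.0 in APL#2 and 40.02 in APL#1. All 4 were higher in APL#2. The 3 genes of the tunnel wall (Rpl4, Rpl17 and Rpl39) had a median of 0.98 and the 5 of the tunnel rim (Rpl19, Rpl22, Rpl23a, Rpl31 and Rpl35) 0.83. The 3 near the peptidyl transferase centre (Rpl3, Rpl8 and Rpl10) had 0.56. Each group holds few genes, and differences between these medians were not tested.

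Rpl5 and Rpl11, which travel with 5S ribosomal RNA and bind Mdm2 when free, lay somewhat below the large subunit median of 0.60. Rpl5 had 29.95 FPKM in APL#2 and 24.4 in APL#1 (relative difference 0.46) and Rpl11 had 48.0 in APL#2 and 40.5 in APL#1 (0.41). Their implied standard errors by the authors' deposited table, 0.49 and 0.64, were larger than their distance from that median. The genes of the nucleolar stress response were Mdm2 (3.41 FPKM in APL#2 and 2.91 in APL#1), Trp53 (4.01 in APL#2 and 4.16 in APL#1) and Cdkn1a (2.07 in APL#2 and 1.41 in APL#1). Their median relative difference was 0.35, with 3 of 3 above the all-gene median, and their median implied standard error by the authors' deposited table was 0.85.

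In the small subunit, the messenger RNA entry (Rps2, Rps3 and Rps9) had a median relative difference of 0.56, the exit (Rpsa, Rps14, Rps26 and Rps28) 0.72 and the decoding site (Rps15 and Rps23) 0.77. Rpsa, which also occurs as a laminin receptor at the cell surface, had 114 FPKM in APL#2 and 81.2 in APL#1. Rps14, lost in the human 5q- syndrome, had 57.02 FPKM in APL#2 and 38.0 in APL#1. Rps6, the substrate of the S6 kinases, had 30.4 FPKM in APL#2 and 20.4 in APL#1 (relative difference 0.73). These, too, were higher in APL#2. A chosen list of 9 genes linked to Diamond-Blackfan anaemia in human (among them Rpl5, Rpl11, Rpl35a, Rps19 and Rps26) had a median of 0.60. The list does not hold every gene linked to the disease. Rps19, the one most often affected, had 76.1 FPKM in APL#2 and 50.7 in APL#1.

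Higher levels in APL#2 were spread over many chromosomes. Members on chromosome 2 (Rpl35, Rpl12, Rpl7a and Rps21) had a median relative difference of 0.95 and Rpl32 is the measured member on chromosome 6, while no member lies on chromosome 19; earlier results of these data had shown blocks of shifted genes on these 3 chromosomes. Rpl7a had 95.4 FPKM in APL#2 and 55.8 in APL#1. With chromosomes 2, 6 and 19 left out, the median was 0.59 for 43 large and 0.72 for 32 small subunit genes. Members with a small nucleolar or other small RNA of that class listed at the same locus, 22 genes, had a median relative difference of 0.72 and a median FPKM of 69.5 in APL#2 and 51.1 in APL#1. The 51 of the 73 genes without one had 0.68, at 50.1 FPKM in APL#2 and 38.8 in APL#1.

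Promoter windows from RefSeq (GRCm38.p6, 250 bases before to 50 after the start) were found for 65 of the 85 genes. A gene symbol with several windows was counted if any of them matched. A run of at least 8 pyrimidines (C or T) beginning with C on the sense strand was sought from 20 bases before to 50 after the annotated start. It was present in 48 of 65 members (73.8%), 22.7% of all 27025 gene symbols with a window and 22.3% of other measured genes. CTTTCC on the sense strand in the same stretch, which can lie inside such a run, was present in 19 members (29.2%), 3.79% of all symbols and 3.71% of other measured genes. CTTCCG on either strand of the whole window is the core of sites bound by Ets factors such as Gabpa. It was present in 44 members (67.7%), 18.8% of all symbols and 42.0% of other measured genes. TATAAA on the sense strand of the whole window was present in 6 members (9.23%), 9.77% of all symbols and 5.99% of other measured genes. A match is a description of letters and was not related to binding here.

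To show what these runs look like, windows are printed for 6 of the genes with the largest relative differences and 4 of those with the smallest. Both were taken from the 73 members left without the paralogs, Rps19bp1 and the entries at shared loci. Windows run from 40 bases before to 20 after the RefSeq start, 5′ to 3′ on the gene's strand, with pyrimidine runs of at least 6 bases in capitals. The large differences are those of Rps12 (minus strand, chr10:23787190-23787249), Rpl35 (minus, chr2:39005112-39005171), Rpl23 (minus, chr11:97782420-97782479), Rpl39 (minus, chrX:37085203-37085262), Rpl12 (plus, chr2:32961672-32961731) and Rpl7a (plus, chr2:26910767-26910826). The small ones are those of Rpl9 (minus, chr5:65391412-65391471), Rpl13a (minus, chr7:45128726-45128785), Rpl41 (minus, chr10:128549149-128549208) and Rpl24 (plus, chr16:55966235-55966294), all in GRCm38.p6. Rpl32, Rpl17, Rps20, Rpl19 and Rpl8 are not shown.
Rps12: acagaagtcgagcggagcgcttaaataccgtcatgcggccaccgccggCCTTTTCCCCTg
Rpl35: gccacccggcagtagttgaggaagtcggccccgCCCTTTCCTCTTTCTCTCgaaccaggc
Rpl23: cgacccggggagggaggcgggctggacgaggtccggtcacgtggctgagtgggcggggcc
Rpl39: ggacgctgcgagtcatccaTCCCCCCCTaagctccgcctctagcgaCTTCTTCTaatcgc
Rpl12: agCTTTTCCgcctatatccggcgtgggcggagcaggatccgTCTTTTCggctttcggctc
Rpl7a: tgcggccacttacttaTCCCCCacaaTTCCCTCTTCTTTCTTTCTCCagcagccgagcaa
Rpl9: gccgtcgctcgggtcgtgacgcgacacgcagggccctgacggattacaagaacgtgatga
Rpl13a: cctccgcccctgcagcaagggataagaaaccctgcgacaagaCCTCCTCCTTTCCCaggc
Rpl41: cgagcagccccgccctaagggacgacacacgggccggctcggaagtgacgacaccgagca
Rpl24: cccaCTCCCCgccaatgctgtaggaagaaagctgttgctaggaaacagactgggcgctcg
Runs near the start are seen in the windows of large differences other than Rpl23 and, among the small differences, in Rpl13a. Rpl23, Rpl9 and Rpl41 have no run of 6 bases in this window. The only run of Rpl24 lies at the upstream end of its window, outside the stretch searched above. Whether runs differ between genes of large and small differences was not tested.

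Transcripts that share the TOP start with the ribosomal proteins were also mostly higher in APL#2, relative to all genes. Ribosomal components outside the naming rule included Fau, a ubiquitin-like fusion to Rps30 (45.5 FPKM in APL#2 and 19.9 in APL#1, on chromosome 19), and Gnb2l1, the scaffold protein RACK1 (51.0 in APL#2 and 44.7 in APL#1). Of 20 other TOP genes, which code for elongation and initiation factors and for other proteins such as vimentin, importin 7 and Hnrnpa1, 16 had a higher FPKM in APL#2 and 19 lay above the all-gene median, with a median relative difference of 0.39. The standard error implied for these genes by the authors' deposited table had a median of 0.78, larger than that difference. Eef1a1, which brings aminoacyl-tRNA to the ribosome, had 260 FPKM in APL#2 and 148 in APL#1. Eef1g (7.90 FPKM in APL#2 and 3.51 in APL#1, on chromosome 19) and Hnrnpa1 (5.72 in APL#2 and 2.64 in APL#1) had the largest relative differences of this list, at 1.15 and 1.06. Eif3g, at 6.02 FPKM in APL#2 and 6.94 in APL#1, was the 1 gene of the list just below the all-gene median. The 6 noncoding hosts of small nucleolar RNAs had a median of 0.59, with Snhg1 at 9.62 FPKM in APL#2 and 5.14 in APL#1 (on chromosome 19) and Snhg6 at 4.37 in APL#2 and 2.41 in APL#1. Their median implied standard error by the authors' deposited table was 1.01.

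The factors that build the ribosome lay near the all-gene median. Of 35 ribosome biogenesis genes 25 were measured, their median relative difference was 0.06, 6 had a higher FPKM in APL#2 and 16 lay above the all-gene median. The median standard error implied for the measured genes by the authors' deposited table was 0.99. Nop2, which modifies large subunit RNA, had 2.05 FPKM in APL#2 and 1.23 in APL#1 (relative difference 0.62, on chromosome 6). Nolc1, a nucleolar chaperone, had 1.78 in APL#2 and 1.21 in APL#1 (0.51, on chromosome 19). In the other direction, Nop56 of the box C/D particle had 2.05 FPKM in APL#2 and 3.37 in APL#1 (-0.35, on chromosome 2). These are the chromosomes with blocks of shifted genes, and the related lists were not recomputed without them. Nucleolin, Ncl, the most abundant of the list, had 11.0 FPKM in APL#2 and 11.1 in APL#1 (0.16). Of 7 dedicated chaperones of ribosomal proteins 3 were measured and all lay below the median, with Aamp at 2.86 FPKM in APL#2 and 4.11 in APL#1 and Pdcd2, which escorts Rps2, at 1.80 in APL#2 and 2.39 in APL#1.

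Genes that control TOP translation were low in both libraries, and 6 of 10 were measured, with a median relative difference of 0.31 and 5 above the all-gene median. The median standard error implied for the 6 by the authors' deposited table was 1.03, larger than each relative difference given here. Eif4ebp1, a translational repressor silenced by mTOR, had 3.68 FPKM in APL#2 and 2.34 in APL#1 (relative difference 0.66). Rps6kb2, an S6 kinase gene on chromosome 19, had 2.19 FPKM in APL#2 and 1.39 in APL#1 (0.59). Myc, which drives ribosome synthesis, had 2.20 FPKM in APL#2 and 1.59 in APL#1 (0.47), and Larp1, the binder of the TOP cap, had 1.39 in APL#2 and 1.503 in APL#1. Translation itself was not measured.

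**Figure D5:**
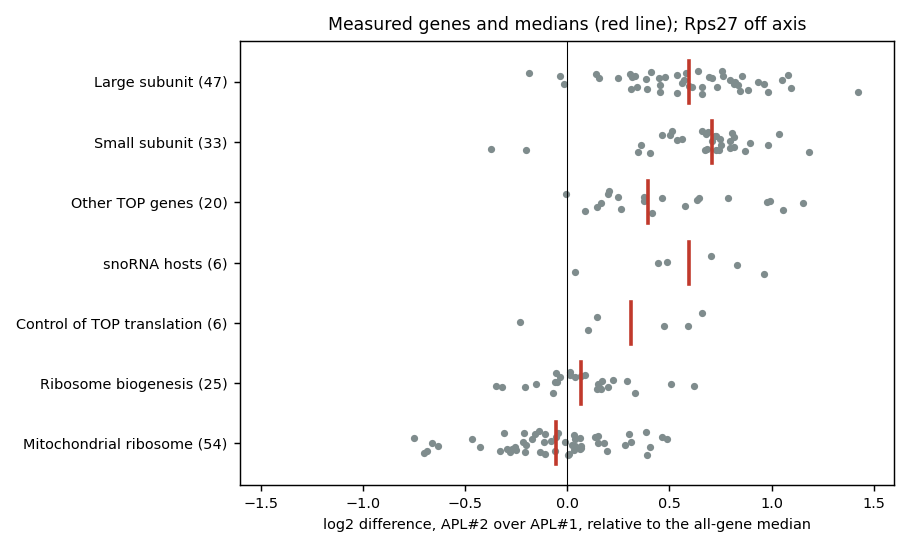
Relative log2 difference of APL#2 over APL#1 for each measured gene (points, spread vertically for legibility) and the median (red line) of the 2 subunits and 5 related lists, with the number of measured genes in brackets; Rps27 lies outside the x axis. Medians are 0.60 and 0.71 for the subunits, 0.39 for other TOP genes, 0.59 for small nucleolar RNA hosts, 0.31 for control of TOP translation, 0.06 for ribosome biogenesis and -0.06 for the mitochondrial ribosome.

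Mpo and Elane, enzymes of the primary granules, were much lower in APL#2, and other cell types gave little signal. All 6 identity genes fixed for promyelocytes and leukocytes were measured; their FPKM summed to 179 in APL#2 and 712 in APL#1, mostly through Mpo, myeloperoxidase (157 in APL#2 and 662 in APL#1). Elane had 5.01 FPKM in APL#2 and 32.4 in APL#1, while Ctsg was higher in APL#2 (8.99 in APL#2 and 7.89 in APL#1). Prtn3 (2.45 FPKM in APL#2 and 3.45 in APL#1), Ptprc (4.10 in APL#2 and 4.66 in APL#1) and Cd68 (1.01 in APL#2 and 1.54 in APL#1) were somewhat lower in APL#2. The lists for B, T, NK and erythroid cells each summed to at most 0.323 FPKM in APL#2 and 0.161 in APL#1, with Ncr1 and Hbb-b2 at 0 in both, and the 4 macrophage markers to 0.637 in APL#2 and 0.138 in APL#1. Of 3 megakaryocyte markers Itga2b was measured (3.95 in APL#2 and 2.34 in APL#1) with Pf4 and Gp9 at 0 in both, and of 4 stroma and endothelium markers Pecam1 was measured (1.62 in APL#2 and 3.62 in APL#1) with Col3a1 at 0 in both. The part of these marker differences in the ribosomal protein result was not tested. In 302 of 3168 low genes FPKM in APL#1 was 1.08 times that in APL#2 to within 0.1%, as for equal numbers of fragments, and the step of 1 fragment on a transcript of 1 kb was close to 0.0175 FPKM for APL#2 and 0.0191 FPKM for APL#1.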

How the data were processed

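The authors deposited 1 gene table for both libraries. Per the submitters' processing notes, which give neither role nor order, the tools were Cuffdiff, Cufflinks and TopHat2 2.0.10 and the build was mm9; read layout, strand, annotation and filters were not stated. Its 2 value columns, deposited by the authors, were read as FPKM from the layout of the table, whose header names no unit. The test statistic (a score), p-value and q-value per gene are the authors' own, per the file headers; the sign of the statistic is opposite to that of the fold. Counts were not given, so depth was estimated from the steps of low FPKM values.

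From these values, log2((FPKM + 1) in APL#2 over APL#1) was computed for genes whose mean over both libraries reached 1 FPKM, and set against the all-gene median. There was no replicate, so no test was run. Members and lists were chosen with earlier results of these data known. Named genes are, per subunit, the 5 most abundant, the 5 most different in each direction, those below the all-gene median or 2-fold different, paralogs with their parents, members on chromosomes 2, 6 and 19, and the 2 most different of each related list; others illustrate roles or single out abundant genes, loci and markers, and were chosen once their values were known. Sequence came from RefSeq (GRCm38.p6) and GENCODE (GRCm38) by symbol, and no coordinate was converted from mm9. Transcript lengths, available for 91.6% of measured genes, are from the reference annotation. Alternatives were pseudocounts of 0.1 and 0.01, other minimum levels, other scaling, and leaving out chromosomes, paralogs or uncertain members; summing entries at 1 locus and scaling to the other genes were chosen after seeing the data. Some members and 1 sequence are not reported here, though they count in the medians and totals. The arithmetic was checked on simulated data. Python 3.11.15, pandas 2.3.3, numpy 2.4.6, SciPy 1.17.1, Biopython 1.88 and matplotlib 3.10.9 were used.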

Additional observations from a re-analysis of the deposited data

Results flagged for a closer look

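Several entries that the symbol rule leaves out carried signal in both libraries at loci or under names of ribosomal proteins. Gm15772, at the locus of Rpl26, had 64.7 FPKM in APL#2 and 44.9 in APL#1. Gm12191, at the locus of Rpl30, had 38.3 FPKM in APL#2 and 25.9 in APL#1. The entry that carries Gm9846 and Rps27 had 44.0 FPKM in APL#2 and 8.17 in APL#1. The entry that carries Rpl34 and Rpl34-ps1 had 39.0 FPKM in APL#2 and 29.96 in APL#1. Rps19-ps3, a pseudogene symbol, had 26.9 FPKM in APL#2 and 19.8 in APL#1. All 5 were higher in APL#2. Whether their reads came from the gene or from a copy was not tested.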

How the results depend on the processing

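The median relative difference was 0.41 to 0.68 for the large and 0.52 to 0.83 for the small subunit over all 11 alternatives, and the genes above the all-gene median (or above 0, where no median was subtracted) were 41 to 47 and 29 to 31. Genes at least 2-fold higher numbered 2 as reported, 3 with a pseudocount of 0.1 or 0.01, 1 with equal total FPKM in both libraries, 1 with chromosomes 2, 6 and 19 left out, and 5 with equal total FPKM over genes other than the members, a scaling chosen after seeing the data; the genes 2-fold lower numbered 1 as reported, 0 without members whose implied standard error exceeds 2, and 0 with entries at 1 locus summed, also chosen after seeing the data. By construction the limit on standard error leaves out Rps27 and the summing adds its other entry. The 34 named members were followed under the 9 alternatives other than the summing and the scaling to other genes. All 289 values moved by less than the implied standard error, which is a wide limit (18.5 for Rps27). Leaving out paralogs or uncertain members cannot move the values of the members kept, since the all-gene median stays the same. No 2-fold different member changed sign there, but members near 0 did. With equal total FPKM, Rpl24 went from 0.14 to -0.05 and Rpl41 from 0.16 to -0.03. With a pseudocount of 0.1, Rpl36al went from -0.02 to 0.05. With the entries summed, Rps27 turned to a relative difference of 0.78. The all-gene median was -0.03 to -0.26 before it was subtracted. No paired analysis was possible because each leukaemia has 1 library, and for the same reason no replicate could be left out. Fragments could not be counted per gene, so counting error is known only roughly.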

Other observations

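The listed values of small nucleolar RNAs encoded at ribosomal protein loci did not follow their hosts in 1 direction. Snord100 at Rps12 had 570 FPKM in APL#2 and 123 in APL#1, while Snord34 at Rpl13a was listed at 0 in APL#2 and had 223 in APL#1, and Snord4a at Rpl23a was listed at 0 in APL#2 and had 207 in APL#1. Snora64 at Rps2 was nearly level, at 331 FPKM in APL#2 and 307 in APL#1. These genes were picked after their values were seen, and several are listed at 0 in 1 library, so no fold is given. FPKM is scaled to transcript length, so on such small RNAs a high value can rest on few fragments. Snord73a at Rps3a, for example, had the same value as Snord100 in APL#1, at 123 FPKM. Fragments behind these values were not estimated, so whether these RNAs differ between the leukaemias cannot be decided.

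The S6 kinase genes that the symbol rule drops lay on either side. Rps6ka1 had 3.79 FPKM in APL#2 and 4.59 in APL#1, Rps6ka3 had 0.905 in APL#2 and 1.77 in APL#1, and Rps6kb2 had 2.19 in APL#2 and 1.39 in APL#1. Rps6kb1, which codes for the main kinase of Rps6, was nearly level at 0.657 FPKM in APL#2 and 0.681 in APL#1.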
